A study of Mus musculus with 18 samples.

Results

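The mast cell genes described here are 7 of the 48709 genes in the deposited table: Tpsb2, Cma1, Cpa3, Mcpt4, Kit, Ms4a2 and Hdc. They were chosen by name, as genes that mark mast cells, with earlier results of these data known. Each symbol was matched to its row in the table. All samples were left ventricles of male wild-type C57BL/6J mice, 12 weeks old, and 6 libraries of polyadenylated RNA were sequenced in each of 3 groups. The isoproterenol and minocycline group received isoproterenol, a β-adrenergic agonist, at 30 mg/kg/day from an osmotic pump, together with a daily intraperitoneal injection of 50 mg/kg minocycline, a tetracycline antibiotic. The isoproterenol group received the same infusion, and the control group received saline in place of it. Per the series' design text, animals without minocycline were injected with saline instead. Hearts were collected after 21 days. The samples used here include none given minocycline without isoproterenol. The labels number each library, while the protocol speaks of pooled RNA, so whether 1 library stands for 1 mouse is not settled.

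Mast cells are tissue-resident immune cells that store proteases and histamine in granules and release them when activated. Their survival depends on KIT, the receptor for stem cell factor, and antigen-driven release runs through the high-affinity IgE receptor. In the heart they lie mainly around vessels and in the epicardium, and their chymase can form angiotensin II independently of angiotensin-converting enzyme. The members fall into granule proteases (Tpsb2, Cma1, Mcpt4 and Cpa3), receptors (Kit and Ms4a2) and the enzyme that makes histamine (Hdc).

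Tpsb2 (ENSMUSG00000033825, chr17:25366550-25368094, plus strand) encodes a mast cell tryptase. Cma1 (ENSMUSG00000022225, chr14:55941453-55944661, minus strand) and Mcpt4 (ENSMUSG00000061068, chr14:56059744-56062310, minus strand) encode chymases and lie on the same chromosome. Cpa3 (ENSMUSG00000001865, chr3:20215620-20242181, minus strand) encodes the mast cell carboxypeptidase. Kit (ENSMUSG00000005672, chr5:75574916-75656722, plus strand) encodes a receptor tyrosine kinase that melanocytes and some progenitor cells also carry. Ms4a2 (ENSMUSG00000024680, chr19:11615523-11623719, minus strand) encodes the beta chain of the IgE receptor. Hdc (ENSMUSG00000027360, chr2:126593667-126619299, minus strand) encodes histidine decarboxylase, which other myeloid cells can also express. Positions span the whole gene as the deposited table gives them, and all 7 are annotated as protein coding. The build is not given in the sources used here, but 4 of the 7 have the same start and end as in GENCODE release M21 on GRCm38, and the other 3 overlap their entry there. Only Cpa3 has another annotated gene within it, Mir7007, which had 0 counts.

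The promoters of the 3 proteases with a RefSeq entry are shown because the results turn on the proteases and because GATA factors are known to act on mast cell genes. Each line holds the 250 bases before the RefSeq start (GRCm38.p6), written 5′ to 3′ on the gene's strand. Capitals mark a GATA word, defined as AGATAA or AGATAG or TGATAA or TGATAG on either strand. The windows are chr14:56062311-56062560 for Mcpt4, chr14:55944676-55944925 for Cma1 and chr3:20242182-20242431 for Cpa3, all on the minus strand.
Mcpt4: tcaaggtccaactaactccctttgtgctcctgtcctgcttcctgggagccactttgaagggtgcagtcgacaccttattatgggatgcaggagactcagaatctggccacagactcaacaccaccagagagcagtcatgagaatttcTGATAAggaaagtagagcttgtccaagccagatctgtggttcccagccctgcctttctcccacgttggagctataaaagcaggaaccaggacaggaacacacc
Cma1: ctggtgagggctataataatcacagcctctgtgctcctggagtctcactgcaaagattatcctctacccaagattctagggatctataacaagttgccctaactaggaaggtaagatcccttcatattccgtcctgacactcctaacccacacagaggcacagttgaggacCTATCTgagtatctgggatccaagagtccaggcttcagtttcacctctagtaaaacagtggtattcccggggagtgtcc
Cpa3: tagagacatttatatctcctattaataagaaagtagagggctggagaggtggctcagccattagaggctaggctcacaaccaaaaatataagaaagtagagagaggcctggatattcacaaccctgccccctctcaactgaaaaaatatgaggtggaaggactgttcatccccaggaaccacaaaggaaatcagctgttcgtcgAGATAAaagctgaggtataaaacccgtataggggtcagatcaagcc
In Mcpt4 the word is TGATAA and ends 98 bases before the start. In Cma1 it is AGATAG read on the opposite strand, 74 bases before the start, and in Cpa3 it is AGATAA, 41 bases before the start. Mcpt4 and Cpa3 also hold TATAAA on the gene's strand, 27 and 26 bases before the start. Cpa3 holds it a second time on the opposite strand, 237 bases before the start, and Cma1 does not hold it in this window on either strand. Of the 7 members, 6 had a RefSeq promoter entry and 5 of these held at least 1 GATA word: Ms4a2 held 3, Hdc held 1 and Kit held 0. For comparison, 26.5% of 32851 RefSeq promoter windows of that length held a GATA word and 12.4% held TATAAA.

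Total counts per library lay between 17246214 and 21772148 in the isoproterenol and minocycline group, between 14203041 and 20145792 in the isoproterenol group, and between 17079823 and 22688664 in the control group. Summed ventricular myocyte markers made up 49096 to 66044 CPM (counts scaled to library size, with library sizes adjusted by TMM) in all libraries. The atrial marker Myl7 was above 80 CPM in 4 libraries: isoproterenol and minocycline replicate 2 (206 CPM), isoproterenol replicate 5 (96.3 CPM), and control replicates 5 (134 CPM) and 6 (85.6 CPM). Each fit below was therefore also run without those 4 libraries.

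At these depths the members had between 0 and 110 counts in a library, so counting error is part of the spread between libraries. The tryptase Tpsb2 had 30 to 61 counts in isoproterenol and minocycline libraries (median 37.5), 14 to 43 in isoproterenol libraries (median 32.5), and 10 to 23 in control libraries (median 14). All isoproterenol and minocycline libraries were above all controls, while the lowest isoproterenol library lay within the control range. The chymase Cma1 had 18 to 55 counts in isoproterenol and minocycline libraries (median 31.5), 14 to 31 in isoproterenol libraries (median 23.5), and 8 to 15 in control libraries (median 12). Again the group given both drugs was separate from control, and the isoproterenol group touched it at its lower end.

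The other chymase, Mcpt4, had 27 to 110 counts in isoproterenol and minocycline libraries (median 39), 14 to 65 in isoproterenol libraries (median 38), and 9 to 22 in control libraries (median 16.5). The value of 110 came from isoproterenol and minocycline replicate 2 and stood far above the other 5 libraries of its group, while the value of 65 came from isoproterenol replicate 5. The isoproterenol group reached into the control range at its lower end. Both replicates are among the libraries with high Myl7. The carboxypeptidase Cpa3 had 18 to 47 counts in isoproterenol and minocycline libraries (median 24), 8 to 37 in isoproterenol libraries (median 24.5), and 4 to 24 in control libraries (median 13.5). Its groups overlapped, and its highest value was again in isoproterenol and minocycline replicate 2. Summed over the 4 proteases, counts were 95 to 273 in isoproterenol and minocycline libraries (median 133.5), 55 to 159 in isoproterenol libraries (median 116), and 39 to 81 in control libraries (median 53.5).

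Kit had 29 to 52 counts in isoproterenol and minocycline libraries (median 39.5), 35 to 83 in isoproterenol libraries (median 56.5), and 48 to 83 in control libraries (median 51.5). Its lowest median was in the group given both drugs, where those of Tpsb2, Cma1 and Mcpt4 were highest, and the groups overlapped. Hdc had 17 to 72 counts in isoproterenol and minocycline libraries (median 29), 21 to 55 in isoproterenol libraries (median 50.5), and 7 to 34 in control libraries (median 22.5). The value of 72 belonged to isoproterenol and minocycline replicate 6 alone, and all 3 groups overlapped. Ms4a2 was close to undetected, with 7 counts summed over the isoproterenol and minocycline libraries, 11 over the isoproterenol libraries and 5 over the control libraries. The exact Poisson 95% intervals of those sums were 2.81 to 14.4, 5.49 to 19.7 and 1.62 to 11.7, which cover counting error only. Ms4a2 had 0 counts in 4 isoproterenol and minocycline, 3 isoproterenol and 4 control libraries. Of the mast cell markers, the 4 granule proteases, Kit and Hdc were thus detected in all 18 libraries, while the IgE receptor chain was at or near 0.

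**Figure D1:**
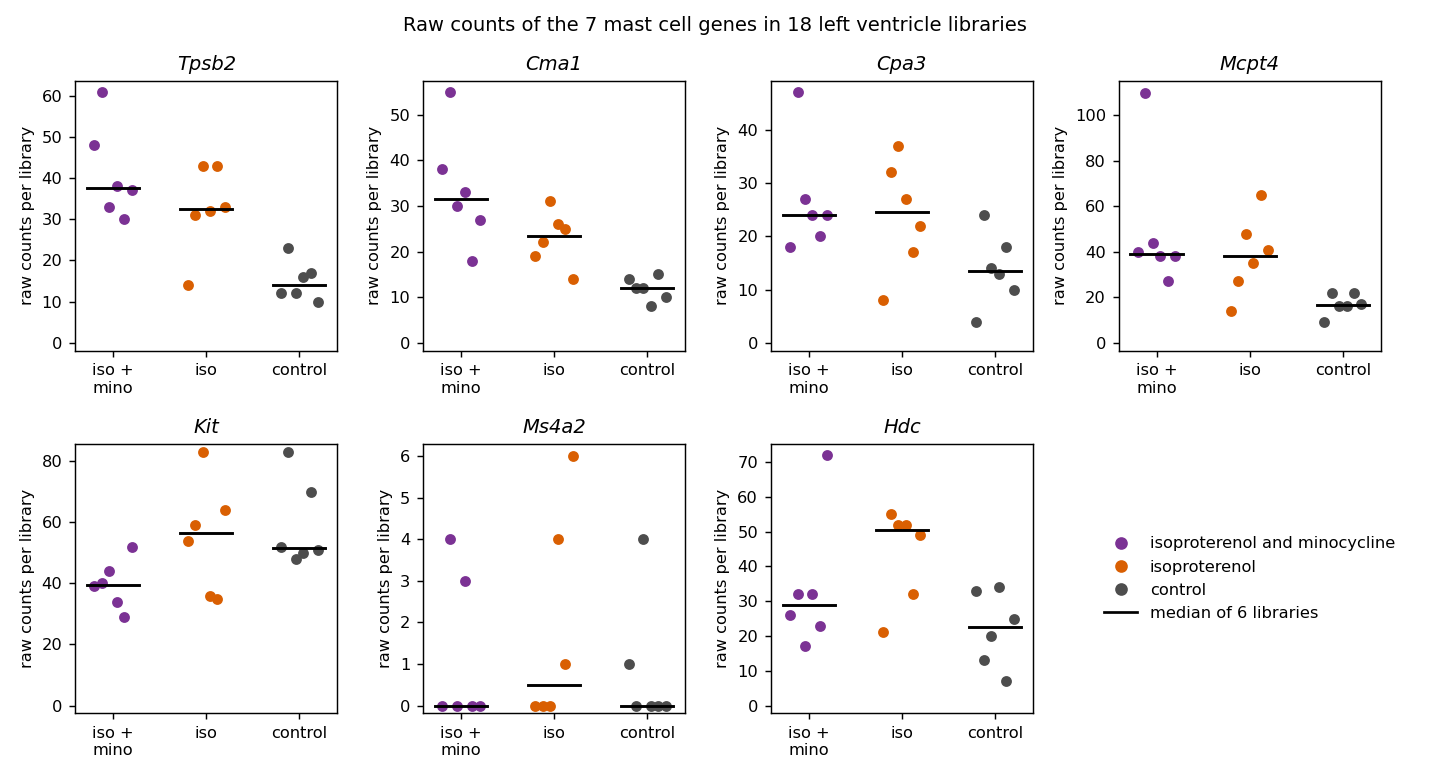
Raw counts per library (vertical axes, each from 0) of the 7 genes, with 1 point for each of the 6 libraries of a group and a line at the group median. The 4 proteases sit lowest in control libraries, Kit has its lowest median in the isoproterenol and minocycline libraries, and Ms4a2 stays at 6 counts or fewer.

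Isoproterenol against control asks what the infusion alone did to these genes. Of the 4 proteases, 3 rose: Tpsb2 2.31-fold, Mcpt4 2.41-fold and Cma1 2.02-fold. Tpsb2 averaged 1.82 ± 0.613 CPM in isoproterenol libraries and 0.779 ± 0.198 CPM in control libraries (SD, n = 6 each), a log2 fold change of 1.21 with a standard error (SE) of 0.24 (edgeR quasi-likelihood test with Benjamini-Hochberg adjustment, adjusted p = 0.00208). Cma1 averaged 1.27 ± 0.284 CPM in isoproterenol libraries and 0.629 ± 0.159 CPM in control libraries, with a log2 fold change of 1.02 (SE 0.25, adjusted p = 0.00927). For Mcpt4 the averages were 2.16 ± 1.12 CPM in isoproterenol libraries and 0.885 ± 0.214 CPM in control libraries, with a log2 fold change of 1.27 (SE 0.34, adjusted p = 0.0181). In each of these genes all 6 isoproterenol libraries were above the control mean, and 5 of them were above every control library. The isoproterenol replicate that fell within the control range was number 1 for Tpsb2 and Mcpt4 and number 6 for Cma1.

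The remaining members did not pass the test in that comparison. Cpa3 averaged 1.29 ± 0.459 CPM in isoproterenol libraries and 0.706 ± 0.314 CPM in control libraries (log2 fold change 0.85, SE 0.30, adjusted p = 0.0678). Hdc averaged 2.38 ± 0.606 CPM in isoproterenol libraries and 1.19 ± 0.641 CPM in control libraries (log2 fold change 1.03, SE 0.35, adjusted p = 0.0585). Of 30 alternatives, 25 did not call Cpa3 (adjusted p from 0.0247 to 0.161 over all 30) and 23 did not call Hdc (0.0128 to 0.186). Among those that did was DESeq2 (adjusted p = 0.0427 for Cpa3 and 0.0312 for Hdc). Kit averaged 3.06 ± 0.898 CPM in isoproterenol libraries and 3.10 ± 0.652 CPM in control libraries, with a log2 fold change of -0.017 (SE 0.18, adjusted p = 0.968). Thus 3 of the 7 members were called higher and 0 lower with 6 tested, where 6.94% of the 13281 genes tested were called higher and 5.62% lower. The median log2 fold change was 1.02 over the 6 tested members and 0.0011 over all genes tested. Members and gene lists were chosen with earlier results of these data known. Such shares and medians, here and below, are therefore descriptions only. Ms4a2, too low for the fit, gave an exact 2-sided permutation p of 0.348 for mean CPM (adjusted p = 0.75 over 3 comparisons).

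Single libraries carried part of these calls. Without isoproterenol replicate 5 the adjusted p of Mcpt4 was 0.0525, and without the 4 high-Myl7 libraries that of Cma1 was 0.0508 with its log2 fold change at 1.01. Cpa3 passed when isoproterenol replicate 1 (adjusted p = 0.0247) or control replicate 2 (0.0308) was left out. Hdc passed without isoproterenol and minocycline replicate 6 (0.0271), isoproterenol replicate 1 (0.0434) or control replicate 1 (0.0318). The number of members called higher lay between 2 and 5 when each library was left out in turn. Tpsb2 passed under all 30 alternatives tried. In whole tissue, more mast cells and more RNA per mast cell cannot be told apart.

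The isoproterenol and minocycline group against the isoproterenol group asks what minocycline added. No member passed the test, with 0 of the 6 tested members called and 1 at an unadjusted p under 0.05, and DESeq2 and limma-voom also called 0. Over all genes tested, 0.0527% were called in either direction, so this contrast gave few calls of any kind. The unadjusted exception was Kit, at 1.98 ± 0.294 CPM in isoproterenol and minocycline libraries and 3.06 ± 0.898 CPM in isoproterenol libraries. Its log2 fold change was -0.62 (SE 0.19, adjusted p = 0.451), and all 6 isoproterenol and minocycline libraries were below the isoproterenol mean. The protease with the widest difference was Cma1, at 1.66 ± 0.496 CPM in isoproterenol and minocycline libraries and 1.27 ± 0.284 CPM in isoproterenol libraries (log2 fold change 0.39, SE 0.22, adjusted p = 0.706). For Tpsb2, Mcpt4 and Cpa3 the log2 fold changes were 0.18 (SE 0.21), 0.18 (SE 0.30) and 0.024 (SE 0.28). Without isoproterenol and minocycline replicate 2 that of Mcpt4 was -0.15, so 1 library set its sign. Hdc had a log2 fold change of -0.51 (SE 0.33, adjusted p = 0.745). The SEs of the 6 genes lay between 0.19 and 0.33 on the log2 scale, and the missing calls do not show that the groups are alike.

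The isoproterenol and minocycline group against control shares its control libraries with the first comparison. All 4 proteases rose, and Kit fell. Tpsb2 averaged 2.05 ± 0.430 CPM in isoproterenol and minocycline libraries and 0.779 ± 0.198 CPM in control libraries, a log2 fold change of 1.38 (SE 0.23, adjusted p = 0.000336, edgeR). Cma1 averaged 1.66 ± 0.496 CPM in isoproterenol and minocycline libraries and 0.629 ± 0.159 CPM in control libraries, a log2 fold change of 1.41 (SE 0.24, adjusted p = 0.000321). Mcpt4 averaged 2.41 ± 1.20 CPM in isoproterenol and minocycline libraries and 0.885 ± 0.214 CPM in control libraries, with a log2 fold change of 1.45 (SE 0.33, adjusted p = 0.0049). In these 3 genes the groups did not overlap, where 3.55% of all genes tested were higher without overlap. Cpa3 had a log2 fold change of 0.88 (SE 0.30, adjusted p = 0.0446), with averages of 1.32 ± 0.393 CPM in isoproterenol and minocycline libraries and 0.706 ± 0.314 CPM in control libraries, and its groups overlapped.

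Kit averaged 1.98 ± 0.294 CPM in isoproterenol and minocycline libraries and 3.10 ± 0.652 CPM in control libraries, 1.56-fold lower (log2 fold change -0.64, SE 0.19, adjusted p = 0.0218), and all 6 libraries were below the control mean. Hdc averaged 1.67 ± 0.898 CPM in isoproterenol and minocycline libraries and 1.19 ± 0.641 CPM in control libraries, and did not pass (log2 fold change 0.52, SE 0.36, adjusted p = 0.330). With 4 members higher and 1 lower of 6 tested, the background was 10.2% of genes called higher and 9.05% called lower. The median was 1.13 over the tested members and 0.0035 over all genes on the log2 scale. The calls of Cpa3 and Kit were the weaker ones. That of Cpa3 was lost on leaving out any of 12 of the 18 libraries, isoproterenol and minocycline replicates 2, 3, 4 and 6, isoproterenol replicates 2, 4 and 6 and control replicates 1, 3, 4, 5 and 6, with adjusted p from 0.0503 to 0.123 in those fits. That of Kit was lost without isoproterenol and minocycline replicate 2 (0.0506) or control replicate 2 (0.0523). Without the 4 high-Myl7 libraries Cpa3 had an adjusted p of 0.211 and Kit of 0.126, while Tpsb2, Cma1 and Mcpt4 still passed. Ms4a2 did not differ past the threshold (exact 2-sided permutation p = 1 against control and 0.5 against isoproterenol).

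**Figure D2:**
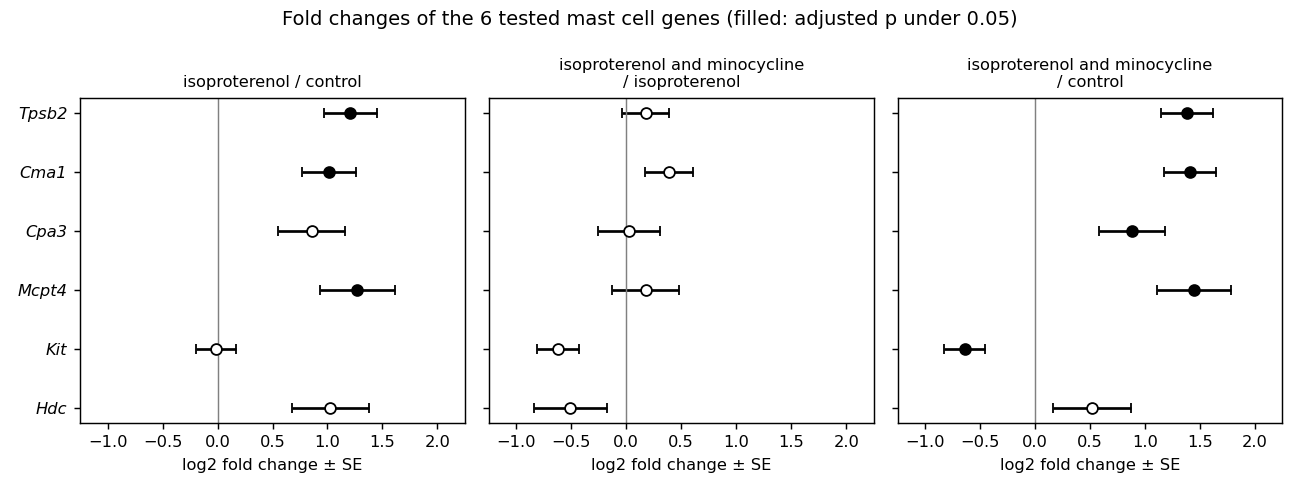
Log2 fold change (horizontal axis) of the 6 tested genes in each of the 3 comparisons, with bars of 1 SE and filled points for an adjusted p under 0.05. Tpsb2, Cma1 and Mcpt4 are filled and right of 0 in both comparisons with control, no point is filled in the middle panel, and Kit is filled left of 0 in the right panel.

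On a per-length scale, the authors' TPM values, which divide counts by transcript length and scale each library to the same sum, the 7 genes can be set against each other. Mcpt4 averaged highest in every group, at 3.83 ± 2.07 TPM in isoproterenol and minocycline libraries, 3.62 ± 2.11 TPM in isoproterenol libraries and 1.29 ± 0.344 TPM in control libraries. Tpsb2 came next with 2.97 ± 0.740 TPM in isoproterenol and minocycline libraries, 2.76 ± 1.05 TPM in isoproterenol libraries and 1.04 ± 0.281 TPM in control libraries. Cma1 followed with 2.41 ± 0.791 TPM in isoproterenol and minocycline libraries, 1.93 ± 0.476 TPM in isoproterenol libraries and 0.842 ± 0.211 TPM in control libraries. The ranges of these neighbours overlapped in each group, so the order among the 3 is not firm. The level of Cpa3 was 1.36 ± 0.443 TPM in isoproterenol and minocycline libraries, 1.36 ± 0.426 TPM in isoproterenol libraries and 0.673 ± 0.309 TPM in control libraries. That of Kit was 0.491 ± 0.0748 TPM in isoproterenol and minocycline libraries, 0.790 ± 0.212 TPM in isoproterenol libraries and 0.712 ± 0.167 TPM in control libraries. In control libraries Kit averaged above Cpa3 with overlapping ranges, while in isoproterenol and minocycline libraries Cpa3 was above Kit without overlap. Hdc was at 0.412 ± 0.230 TPM in isoproterenol and minocycline libraries, 0.603 ± 0.134 TPM in isoproterenol libraries and 0.268 ± 0.143 TPM in control libraries. Ms4a2, the lowest, averaged 0.0314 TPM in isoproterenol and minocycline libraries, 0.0609 TPM in isoproterenol libraries and 0.0218 TPM in control libraries.

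**Figure D3:**
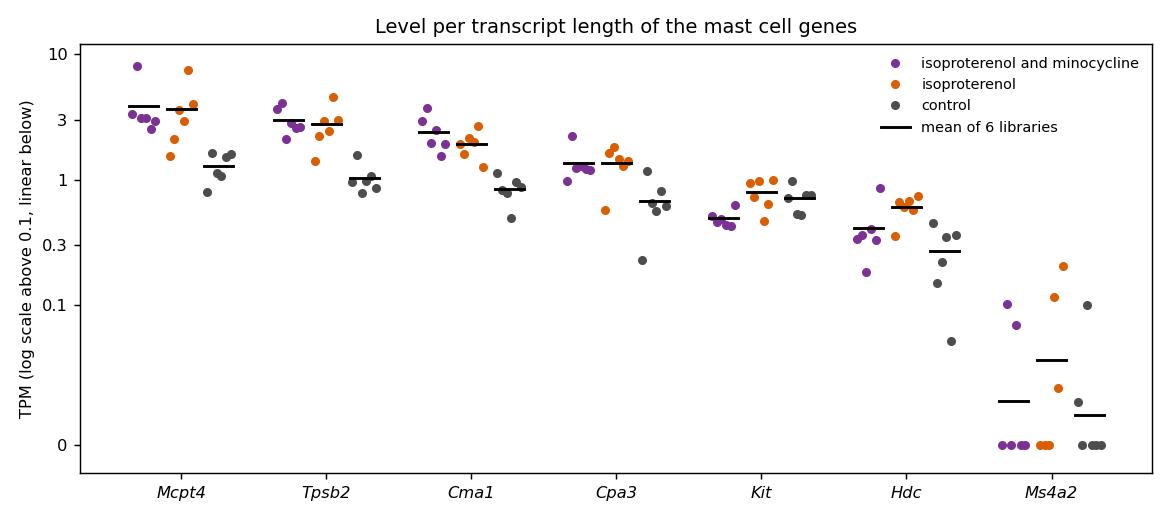
Level per transcript length (vertical axis, TPM, log scale above 0.1 and linear below) in each library, with genes ordered by mean level and a line at each group mean. Mcpt4 is at the high end with a mean of 3.83 TPM in isoproterenol and minocycline libraries, and Ms4a2 is at the low end with most libraries at 0.

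The shares of the 4 proteases in their summed counts differed less between groups than their levels. Of those counts, Mcpt4 took 31.3% ± 4.75 in isoproterenol and minocycline libraries, 31.6% ± 7.37 in isoproterenol libraries and 29.5% ± 4.31 in control libraries (SD, n = 6 each). Tpsb2 took 28.3% ± 4.15 in isoproterenol and minocycline libraries, 27.6% ± 1.59 in isoproterenol libraries and 26.1% ± 4.20 in control libraries. Cma1 took 22.4% ± 2.82 in isoproterenol and minocycline libraries, 20.8% ± 7.42 in isoproterenol libraries and 21.7% ± 7.67 in control libraries. Cpa3 took 18% ± 3.03 in isoproterenol and minocycline libraries, 20.0% ± 6.25 in isoproterenol libraries and 22.8% ± 6.69 in control libraries. For each protease the group means differed by less than the largest of its 3 SDs, and the shares were not tested. Reads could in principle be split between related genes. The longest open reading frames of Cma1 and Mcpt4 were 71.3% identical, and those of Tpsb2 and its paralog Tpsab1 77.1% identical. In neither pair was any 50-base stretch of the first frame present without mismatch in the second. Sequence outside these frames and reads mapped with mismatches were not covered, so whether reads were split is not settled.

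Correlation between members asks which of them varied together from library to library within treatments. After the group means were taken out of log2-CPM, 13 of the 21 member pairs had a positive Pearson's r over 18 libraries, among them all 6 protease pairs (r from 0.016 to 0.79). Only Tpsb2 and Mcpt4 passed adjustment over the 21 pairs (r = 0.79, permutation p = 0.00052, adjusted p = 0.0109; Spearman's rho = 0.66, permutation p = 0.00703, adjusted p = 0.148). Within groups their r was 0.72 in isoproterenol and minocycline libraries, 0.97 in isoproterenol libraries and 0.33 in control libraries. Without isoproterenol replicates 1 and 5, the 2 libraries farthest from the median of Tpsb2, r was 0.61 (permutation p = 0.0131, adjusted p = 0.274). The pair thus stayed positive but did not pass adjustment without those 2. Kit was positive with 2 of the 6 other members, with r between -0.32 and 0.067.

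**Figure D4:**
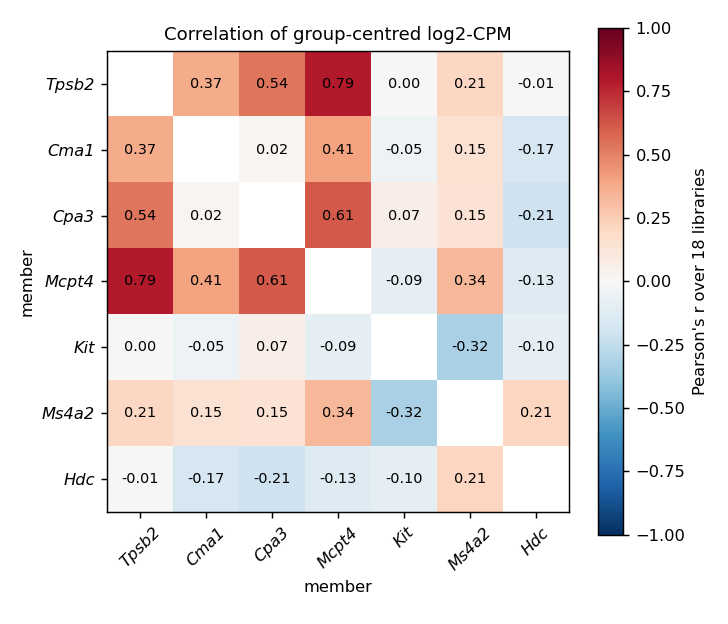
Pearson's r (colour and printed value) between members over 18 libraries after each group mean was removed from log2-CPM. The cell of Tpsb2 and Mcpt4 is highest at 0.79, and the row of Kit lies between -0.32 and 0.07.

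Ranked by the same measure, the genes most like the mean of the 6 tested members were Dhx34 (r = 0.88), Rpl10-ps3 (0.83), H2-Eb1 (0.82), Ptk7 (0.81), Chil1 (0.81), Cyth3 (0.81), Med11 (0.81), Zfp365 (0.81), Adcy1 (0.80) and Gldc (0.80), over 18 libraries and 13275 genes. None of these 10 is in the mast cell lists used here. The listed gene closest to the top was Fcer1g, the shared signalling chain of Fc receptors, at rank 65 (r = 0.72). The macrophage receptor Csf1r stood at rank 77 and the fibroblast proteoglycan Dcn at rank 97. The libraries share depth and tissue composition, so these are descriptions only.

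Another 57 genes of mast cell biology were listed by role, and 36 had counts enough for the fit. In isoproterenol and minocycline against control 10 of the 36 were called higher and 3 lower, beside 10.2% and 9.05% of all genes tested. In isoproterenol against control 6 were higher and 4 lower, beside 6.94% and 5.62%. The median log2 fold change of the 36 was 0.22 in isoproterenol and minocycline against control and 0.19 in isoproterenol against control, beside medians near 0 over all genes tested. Added minocycline gave 0 calls of 36 by edgeR, DESeq2 and limma-voom, with 3 at an unadjusted p under 0.05. Without the 4 high-Myl7 libraries, 6 were higher and 2 lower in isoproterenol and minocycline against control, and 1 was higher and 1 lower in isoproterenol against control. Calls over all genes fell there too, with 613 called lower with both drugs against control, beside 1202 in the main fit. The other totals over all genes without those libraries are not given here. The calls lost there with both drugs were those of Stxbp2, Csf2rb, Syk, Mitf and Ace (adjusted p from 0.0572 to 0.171). With isoproterenol alone they were those of Stxbp2, Csf2rb, Il3ra, Mitf, Hrh2, Edn1, Agtr1a and Tgfb1 (adjusted p from 0.0539 to 0.251), which left Csf2rb2 and Alox5.

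Of the 7 other granule proteases, none reached the filter. Tpsab1, a second tryptase, had 2 to 8 counts in isoproterenol and minocycline libraries, 0 to 7 in isoproterenol libraries and 0 to 7 in control libraries. Mcpt1, Mcpt2 and Mcpt9, proteases of mucosal and uterine mast cells in the mouse, had 0 counts in all 18 libraries. A sum of 0 over the 6 libraries of a group has an exact Poisson upper bound of 3.69 counts. Of 7 tested genes of granule storage and release, 2 rose in isoproterenol and minocycline against control and 1 in isoproterenol against control. Stxbp2, which acts in granule exocytosis, rose in both comparisons with control. It averaged 2.71 ± 0.517 CPM in isoproterenol and minocycline libraries, 3.12 ± 0.641 CPM in isoproterenol libraries and 1.82 ± 0.364 CPM in control libraries (adjusted p = 0.0262 with both drugs and 0.00601 with isoproterenol alone, against control). Its call in the group given both drugs was lost without isoproterenol and minocycline replicate 2 or 6 or control replicate 4 or 6 (adjusted p from 0.0513 to 0.0665). Without the 4 high-Myl7 libraries neither call of Stxbp2 held (adjusted p = 0.171 with both drugs and 0.0586 with isoproterenol alone, against control). Cd63, a granule membrane protein that many cell types carry, was called higher in isoproterenol and minocycline against control, with 89.1 ± 6.30 CPM in isoproterenol and minocycline libraries and 69.4 ± 4.82 CPM in control libraries (adjusted p = 0.000405).

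Of 11 tested receptor, ligand and signalling genes, 5 were called higher in isoproterenol and minocycline against control, 3 in isoproterenol against control, and none lower. Csf2rb2 and Csf2rb, mouse beta chains used by the receptors of interleukin-3 and related cytokines, and Il3ra, the interleukin-3 receptor alpha chain, were higher in both comparisons with control. Csf2rb2 averaged 3.13 ± 1.13 CPM in isoproterenol and minocycline libraries, 2.73 ± 1.17 CPM in isoproterenol libraries and 1.04 ± 0.160 CPM in control libraries (adjusted p = 0.000487 with both drugs and 0.00256 with isoproterenol alone, against control). Both treated groups were above every control library. With both drugs, 3.55% of all genes tested were higher without overlap, and the share with isoproterenol alone is not given here. In isoproterenol against control the call of Csf2rb was lost without isoproterenol replicate 2 (adjusted p = 0.0511). The 2 beta chains are near-identical copies, so how the authors' counting divided reads between them is uncertain. Fcer1g was called higher in isoproterenol and minocycline against control, with 9.89 ± 2.28 CPM in isoproterenol and minocycline libraries and 6.04 ± 0.697 CPM in control libraries (adjusted p = 0.00257). Syk, a kinase of Fc receptor signalling, was called higher there too. Neither call held with the mesothelial markers as a covariate (adjusted p = 0.0591 for Fcer1g and 0.0723 for Syk). The alpha chain of the IgE receptor, Fcer1a, had 1 to 8 counts in isoproterenol and minocycline libraries, 0 to 4 in isoproterenol libraries and 0 to 1 in control libraries, and was not tested. Mrgprb2, as low and not tested either, did not follow the same order. Its counts summed to 15 over the isoproterenol and minocycline libraries, 1 over the isoproterenol libraries and 8 over the control libraries. Kitl, the ligand of KIT, had log2 fold changes against control of 0.060 with both drugs and 0.092 with isoproterenol alone (adjusted p = 0.744 with both drugs and 0.633 with isoproterenol alone, against control). Il33, an alarmin that activates mast cells, averaged 10.6 ± 2.61 CPM in isoproterenol and minocycline libraries, 8.12 ± 2.10 CPM in isoproterenol libraries and 6.28 ± 3.30 CPM in control libraries, and did not pass (adjusted p = 0.0665 with both drugs and 0.443 with isoproterenol alone, against control). With both drugs it passed by DESeq2 (adjusted p = 0.0273) and without isoproterenol and minocycline replicate 5 (0.0454), control replicate 2 (0.0116) or control replicate 5 (0.0479). Il1rl1, also on this list, averaged 1.05 ± 0.302 CPM in isoproterenol and minocycline libraries and 1.33 ± 0.569 CPM in isoproterenol libraries. In control libraries Il1rl1 averaged 0.886 ± 0.262 CPM. Under the 30 alternatives Il1rl1 was called 0 times in either comparison with control.

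Of 5 tested transcription factors, 2 fell in isoproterenol and minocycline against control and 1 in isoproterenol against control. Mitf, which mast cells, melanocytes and cardiomyocytes use, fell in both comparisons with control. It averaged 25.3 ± 6.74 CPM in isoproterenol and minocycline libraries, 23.0 ± 3.16 CPM in isoproterenol libraries and 34.7 ± 3.16 CPM in control libraries (adjusted p = 0.0242 with both drugs and 0.0073 with isoproterenol alone, against control). With both drugs the call was lost without isoproterenol and minocycline replicate 2, 4 or 6 or control replicate 6 (adjusted p from 0.0527 to 0.0611). Stat5a, a signal transducer downstream of cytokine receptors, was lower with both drugs, at 10.9 ± 2.01 CPM in isoproterenol and minocycline libraries and 14.8 ± 2.07 CPM in control libraries (adjusted p = 0.00925). That call did not hold with the mesothelial markers as a covariate (adjusted p = 0.118). Gata2, needed for mast cell development, had log2 fold changes against control of 0.14 with both drugs and 0.10 with isoproterenol alone (adjusted p = 0.483 with both drugs and 0.644 with isoproterenol alone, against control). Alox5, the first enzyme of leukotriene synthesis, fell in both, with 6.83 ± 1.12 CPM in isoproterenol and minocycline libraries, 7.08 ± 0.898 CPM in isoproterenol libraries and 9.46 ± 0.774 CPM in control libraries (adjusted p = 0.00448 with both drugs and 0.0139 with isoproterenol alone, against control). Its partner Alox5ap was called higher in isoproterenol and minocycline against control (adjusted p = 0.00624), but not with the mesothelial markers as a covariate (adjusted p = 0.0758). The histamine receptor gene Hrh2 averaged 0.650 ± 0.339 CPM in isoproterenol libraries and 1.50 ± 0.530 CPM in control libraries, and fell by 1.17 on the log2 scale (adjusted p = 0.0282). That call was lost without isoproterenol replicate 1, 4, 5 or 6 or control replicate 4, 5 or 6 (adjusted p from 0.0507 to 0.0678).

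Of 6 tested genes listed under chymase and tryptase substrates and their receptors, 2 rose in isoproterenol and minocycline against control (Ace and Edn1). Ace encodes angiotensin-converting enzyme and is itself neither such a substrate nor a receptor. In isoproterenol against control 2 rose (Edn1 and Tgfb1) and 1 fell. Edn1, whose precursor chymase can process, was higher in both comparisons with control: 8.15 ± 1.40 CPM in isoproterenol and minocycline libraries, 5.66 ± 1.68 CPM in isoproterenol libraries and 3.23 ± 1.16 CPM in control libraries (adjusted p = 0.000271 with both drugs and 0.0203 with isoproterenol alone, against control). In isoproterenol against control its call was lost without isoproterenol replicate 2 (adjusted p = 0.0572). Agtr1a, the main angiotensin II receptor, averaged 19.5 ± 1.04 CPM in isoproterenol libraries and 25.7 ± 4.78 CPM in control libraries and was called lower (adjusted p = 0.0273). Leaving out isoproterenol replicate 2 or 5 or control replicate 1 or 3 ended that call (adjusted p from 0.0508 to 0.0738). The call of Tgfb1 was lost without isoproterenol replicate 3 or 5 or control replicate 3, 4 or 6 (adjusted p from 0.053 to 0.0637). That of Ace was lost without isoproterenol and minocycline replicate 2, 4 or 6 or control replicate 1, 3, 4 or 6 (adjusted p from 0.0697 to 0.115). Agt, the angiotensin precursor, was not called in any comparison.

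Markers of other cell types give the setting. Basophils share several mast cell genes. Their 3 markers summed to 0 to 5 counts in a library, and Mcpt8, their defining protease, had 1 count over all 18 libraries. The 5 eosinophil markers summed to 0 or 1 count. Of 8 macrophage markers, 6 were called higher in both comparisons with control. Csf1r did not pass (adjusted p = 0.0661 with both drugs and 0.0740 with isoproterenol alone, against control). Nor did Cx3cr1, at 1.34 ± 0.553 CPM in isoproterenol and minocycline libraries, 1.85 ± 0.335 CPM in isoproterenol libraries and 1.98 ± 0.588 CPM in control libraries (with both drugs against control, unadjusted p = 0.0429 and adjusted p = 0.135 by edgeR). The summed level of the 8 was 257 to 429 CPM in isoproterenol and minocycline libraries, 271 to 379 CPM in isoproterenol libraries and 190 to 238 CPM in control libraries. Of the 6 fibroblast markers, 5 were called higher in isoproterenol and minocycline against control and 2 in isoproterenol against control. The only melanocyte marker with enough counts for the fit, Dct, rose in both comparisons with control, with 17.8 ± 0.926 CPM in isoproterenol and minocycline libraries, 18.4 ± 2.78 CPM in isoproterenol libraries and 6.93 ± 2.06 CPM in control libraries (adjusted p = 2.09e-06 with both drugs and 1.71e-06 with isoproterenol alone, against control). The other listed melanocyte markers were low, were not tested and did not all move with Dct. Summed over the isoproterenol and minocycline, isoproterenol and control libraries in turn, Tyr had 4, 5 and 8 counts and Tyrp1 36, 17 and 20. In the same order Mlana had 57, 27 and 23 and Pmel 45, 27 and 17.

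The other lists gave few calls. Neutrophil markers summed to 0.738 to 2.70 CPM in isoproterenol and minocycline libraries, 0.951 to 3.92 CPM in isoproterenol libraries and 0.731 to 2.15 CPM in control libraries, and 0 of the 2 tested were called by edgeR in any comparison, with 1 at an unadjusted p under 0.05 in isoproterenol against control and 1 in isoproterenol and minocycline against isoproterenol. Their part in the Hdc values was not tested. Of 5 endothelial markers, 1 was called higher in isoproterenol and minocycline against control and 0 in isoproterenol against control. Of 6 ventricular myocyte markers, 2 were called lower in both comparisons with control. None of the 4 tested mesothelial, 4 tested adipocyte and 3 atrial markers was called by edgeR in any comparison, with 1 mesothelial and 1 adipocyte marker at an unadjusted p under 0.05 in isoproterenol and minocycline against control. Mesothelial and adipocyte markers varied between libraries of the same group. The 7 mesothelial and epicardial markers summed to 5.12 to 18.8 CPM in isoproterenol and minocycline libraries, 5.46 to 15.6 CPM in isoproterenol libraries and 3.23 to 12.8 CPM in control libraries. The 5 adipocyte markers summed to 2.47 to 31.8 CPM in isoproterenol and minocycline libraries, 0.824 to 18.8 CPM in isoproterenol libraries and 0.492 to 12.3 CPM in control libraries. Isoproterenol and minocycline replicate 2, highest for all 4 proteases in its group, was also highest for the adipocyte and atrial markers, and isoproterenol replicate 5, highest for Tpsb2, Cma1 and Mcpt4 by CPM, was highest for both in its own. The control group did not share this match. Control replicate 5 was highest for the adipocyte (12.3 CPM) and atrial (315 CPM) markers, but control replicate 2 was highest for the summed proteases (4.03 CPM). With the adipocyte markers as a covariate, the log2 fold changes of Tpsb2, Cma1 and Mcpt4 against control all still passed in both comparisons. The calls of Cpa3 and Kit in isoproterenol and minocycline against control did not hold with it, with log2 fold changes of 0.59 for Cpa3 (adjusted p = 0.187) and -0.61 for Kit (adjusted p = 0.0581). With the mesothelial markers as a covariate, the log2 fold change of Mcpt4 was 0.95 in isoproterenol and minocycline against control and no longer passed (adjusted p = 0.0664), nor did those of Cpa3 (0.236) and Kit (0.0994). Calls over all genes fell with it too, to 567 higher and 513 lower, beside 1355 and 1202 in the main fit. Both covariates were means of log2-CPM rather than these sums, without Lep for the adipocyte markers and without Wt1 for the mesothelial ones. They were chosen after the values were seen. Whether these cell types have a part in the protease counts was not tested.

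**Figure D5:**
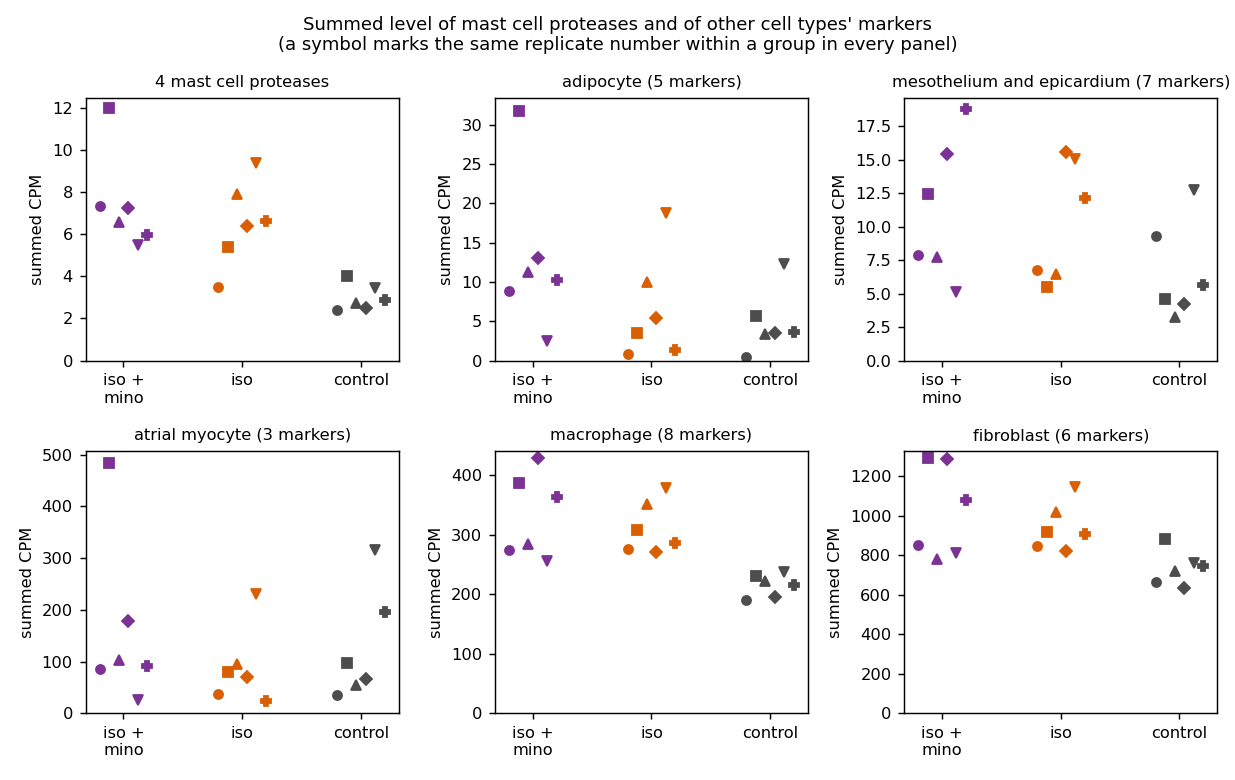
Summed CPM (vertical axes, each from 0) of the 4 proteases and of markers of 5 other cell types in each library, with 1 symbol per replicate number of a group. Replicate 2 of the isoproterenol and minocycline group is at the top of the protease panel (12.0 CPM), the adipocyte panel (31.8 CPM) and the atrial panel (484 CPM). Among controls, replicate 2 is highest for the proteases and replicate 5 for the adipocyte and atrial markers.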

How the data were processed

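Polyadenylated left ventricle RNA was sequenced in 18 libraries. Per the labels' protocols, reads were trimmed and analysed in CLC Genomics Workbench 21.0.3, and edgeR is named in the submitters' processing notes. The mapping and strand settings, build and annotation are not given in the sources used. The authors deposited raw total counts and TPM per gene and library in a single table. Columns and libraries were joined by the description field's number. The titles number the same libraries differently, and those numbers match no column, so each column's group rests on the description field. Replicate numbers were given here in accession order within a group and pair nothing across groups.

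The main test was edgeR 4.0.16 under R 4.3.3 (filterByExpr by group, TMM, robust estimateDisp and glmQLFit, glmQLFTest), 18 libraries in 1 fit. This kept 13281 of 48709 genes, with a CPM minimum of 0.515, and dropped Ms4a2. Calls needed a p under 0.05 after Benjamini-Hochberg adjustment over all genes tested. SEs were obtained from the log2 fold change and the root of its F statistic. Ms4a2 was tested by an exact 2-sided permutation test of mean CPM (924 regroupings). Correlations used log2-CPM (prior count 2) and 100000 permutations within groups. The fit was tested on simulated data. No 2 libraries of a group were alike within sampling noise (chi-square per degree of freedom at least 5.30). Since separate animals are not stated, p-values reflect only the spread between these libraries, which may be in part technical.

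Alternatives were RLE or upper-quartile scaling, no filter, 1 CPM in 6 libraries, DESeq2 1.42.0, limma-voom 3.58.1 with quality weights, the 12 libraries compared, no mitochondrial genes, no libraries above 80 CPM of Myl7, an atrial covariate, and each library left out in turn. Adipocyte and mesothelial covariates were chosen after seeing the data, as was running the pathway lists under every alternative. The members and gene lists were chosen with earlier results of these data known. All 7 members are named, as are up to 4 called genes with the smallest p per pathway list and comparison, 11 pathway genes open to mention in any case, and the 10 genes most like the members. Of the pathway lists, 1 gene is not reported here and is left out of their counts. The authors' normalised and comparison columns other than TPM were not used. Promoters came from RefSeq (GRCm38.p6), and paralogs were compared by the longest open reading frame of GENCODE M21 transcripts.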

Additional observations from a re-analysis of the deposited data

Results flagged for a closer look

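In 54 sets of 6 libraries (a gene or marker sum in a group), the highest or lowest library was compared with the rest, and 8 stood apart by Dixon's test at the 95% level. Chance gives about 5%. Isoproterenol and minocycline replicate 2 was apart for Mcpt4 (4.82 CPM, the other 5 libraries 1.55 to 2.16) and Cpa3 (2.06 CPM, others 0.918 to 1.33). The same library was apart for the summed adipocyte markers (31.8 CPM, others 2.47 to 13.0), the summed atrial myocyte markers (484 CPM, others 26.2 to 179) and the summed basophil markers (0.219 CPM, others 0 to 0.0575), the last resting on 5 counts. Isoproterenol replicate 5 was apart for the summed atrial myocyte markers (230.4 CPM, others 23.0 to 95.1). Isoproterenol and minocycline replicate 6 was apart for Hdc (3.41 CPM, others 0.836 to 1.74). Control replicate 3 was apart for Ms4a2 (0.202 CPM, others 0 to 0.0615), which rests on 4 counts.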

How the results depend on the processing

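Tpsb2 passed in both comparisons with control, and Cma1 in isoproterenol and minocycline against control, under all 30 alternatives. In isoproterenol against control, 5 members were higher by DESeq2 and by the adipocyte covariate, and 2 to 5 when each library was left out. In isoproterenol and minocycline against control, 2 were higher with the mesothelial covariate and 3 to 4 with each library left out. Over all genes tested, 567 were called higher with the mesothelial covariate, beside 1355 in the main fit. Kit was no longer called lower in that comparison (0 members) without the high-Myl7 libraries and with the adipocyte or mesothelial covariate. Its log2 fold change stayed negative there, at -0.56, -0.61 and -0.59 in turn. Over all genes, 613, 728 and 513 were called lower in those settings, beside 1202 in the main fit. The number of members called lower was 0 to 1 with each library left out. Of pathway genes in isoproterenol against control, 1 was higher and 1 lower without the high-Myl7 libraries, and 5 to 8 and 2 to 4 with each library left out (2 without isoproterenol replicate 5). In isoproterenol and minocycline against control, 6 were higher without the high-Myl7 libraries and with the adipocyte covariate, 4 higher and 1 lower with the mesothelial one, and 8 to 12 and 2 to 4 with each library left out. No correlation passed (0 pairs) without the 2 farthest libraries, and those of Cma1 with Cpa3 (-0.18), Cma1 with Ms4a2 (-0.059) and Mcpt4 with Kit (0.28) changed sign.

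Signs near 0 also turned. Kit in isoproterenol against control was 0.097 without the high-Myl7 libraries, 0.0048 with the mesothelial covariate and -0.13 to 0.090 with each library left out. For added minocycline, Cpa3 was -0.20 without the high-Myl7 libraries, -0.15, -0.25 and -0.085 with the atrial, adipocyte and mesothelial covariates, and -0.15 to 0.15 with each library left out. Mcpt4 was -0.12, -0.20 and -0.037 with those covariates and -0.15 to 0.44 with each library left out, and Tpsb2 was -0.0063 with the adipocyte one. Kitl was -0.014 to 0.11 in isoproterenol and minocycline against control with each library left out. The causes were not tested. The members' counts of 0 to 110 limit what can be seen. No paired analysis was possible because the labels give the groups no shared replicate numbers.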
